A study of Mus musculus with 33 samples.

Results

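The genes of cytochrome P450 families Cyp2, Cyp3 and Cyp4 were followed through maps of chromatin at the nuclear lamina. They are the protein-coding genes of chromosomes 1 to 19 of the mouse whose symbols begin with Cyp2, Cyp3 or Cyp4, a subfamily letter and a number, and 76 of 20661 protein-coding genes met this rule. CUT&RUN, in which an antibody directs a nuclease to cut out the DNA it binds in unfixed cells, was used for dimethylated lysine 9 of histone H3 (H3K9me2), a mark of repressed chromatin, and for Lamin B1, a protein of the nuclear lamina. The E11.5 heart came from whole hearts and the E11.5 forebrain from right forebrain lobes of embryos of wild-type C57BL/6J dams, each pooled by litter. The mouse embryonic stem (mES) cells were 1 C57BL/6 line, first plated on mitotically inactivated feeder cells and then kept in LIF with the inhibitors PD0325901 and CHIR99021. H3K9me2 and Lamin B1 had 3 libraries each in each source, from separate litter pools or culture vessels, and IgG had 6 in heart, 6 in forebrain and 3 in mES cells.

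Family 2, 3 and 4 cytochromes P450 are heme enzymes of the endoplasmic reticulum that oxidise drugs, steroids, bile acids and fatty acids with electrons from the reductase Por. Many arose by repeated duplication and stand side by side in clusters, and in the adult most work in the liver, with single members in kidney, lung, skin or nose. In the liver several are switched on by nuclear receptors, such as the xenobiotic receptors Nr1i2 (PXR) and Nr1i3 (CAR) and the fatty acid receptor Ppara. Lamina-associated domains (LADs) are the large, mostly silent chromosome regions in contact with the inside of the nuclear envelope.

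The values are 9 lists of domains deposited by the authors, which place stretches of 10 kb bins in the states LAD, KOD or open in each source. KOD is the depositors' label and is not spelled out in the sources used here. Each list pools the replicates and has no score, so no value below has a replicate error or a test, the depth is unknown, and differences are differences between pooled lists. The maps covered 2401 Mb, of which 11.6% in heart, 7.71% in forebrain and 7.17% in mES cells was in no list, a gap that is no state. LADs numbered 3522 in heart, 2085 in forebrain and 1932 in mES cells. Each source is a bulk sample, so a state held by all cells and one held by part of them cannot be told apart. Expression was not measured, so the labelled tissues could not be checked against marker genes and a state does not tell if a gene was on. Each gene was assigned the state (or no list) with the greatest share of its body. Gene positions are those of RefSeq on GRCm38.p6, on which mm10 is based.

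Counted gene by gene, the Cyp genes lay in LADs more often, and in open chromatin less often, than protein-coding genes at large in all 3 sources. LAD held 39 of the 76 genes in heart (51.3%), where 14.2% of all protein-coding genes were LAD. It held 31 in forebrain (40.8%, with 16.5% of all genes) and 44 in mES cells (57.9%, with 16.5% of all genes). LAD was thus the commonest state of these genes in every source, where open was the commonest state of all genes. Open chromatin held 6 genes in heart (7.89%, with 58.0% of all genes), 19 in forebrain (25.0%, with 57.4%) and 16 in mES cells (21.1%, with 63.6%). The shares of KOD lay closer to those of all genes. KOD held 18 genes in heart and 18 in forebrain (23.7% each, with 17.8% and 18.9% of all genes) and 14 in mES cells (18.4%, with 12.9%). In no list were 13 genes in heart (17.1%, with 9.99% of all genes), 8 in forebrain (10.5%, with 7.21%) and 2 in mES cells (2.63%, with 7.04%). The order of the LAD counts turns on these genes, since among the 61 genes listed in all 3 sources LAD held 37 in heart, 28 in forebrain and 33 in mES cells.

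**Figure D1:**
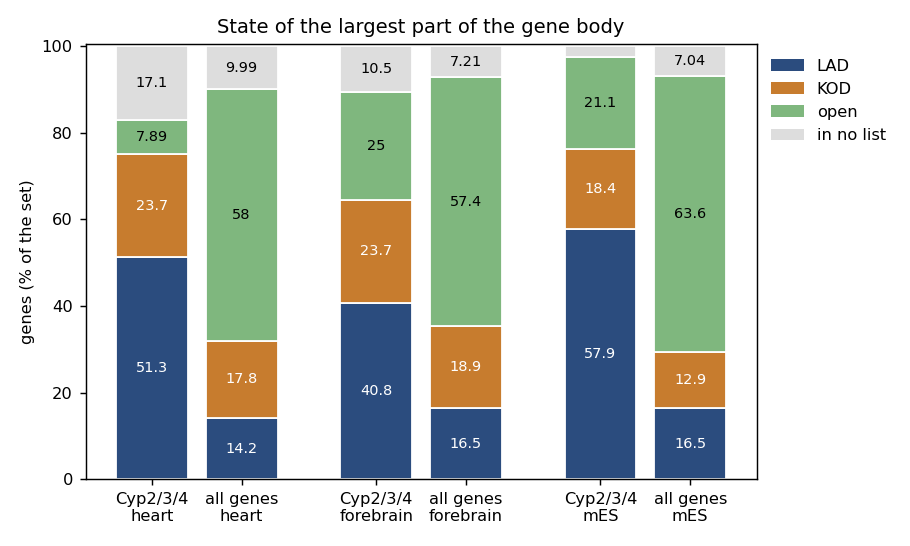
Stacked bars give the percentage of the 76 Cyp2, Cyp3 and Cyp4 genes and of all 20661 protein-coding genes in each state, for heart, forebrain and mES cells from left to right. The LAD part of the Cyp bar is 51.3%, 40.8% and 57.9% high in that order, and 14.2%, 16.5% and 16.5% in the bar of all genes.

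Genes of 1 cluster share 1 stretch of chromatin and are not independent. With starts at most 200 kb apart, 68 genes fell into 10 clusters and 8 stood alone. The 39 LAD genes of heart lay in 10 domains, the 31 of forebrain in 6 and the 44 of mES cells in 10. Clusters whose members all shared 1 state numbered 3 of 10 in heart, 2 in forebrain and 5 in mES cells. Counted as whole units, 7 of 18 clusters and single genes were mainly LAD in heart, 4 in forebrain and 7 in mES cells. Shares of all genes were not computed for such units, so these counts have no background. In forebrain the LADs over the Cyp2c, the Cyp4a with Cyp4b, and the Cyp2j genes held 12, 9 and 7 of the 31 LAD genes.

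**Figure D2:**
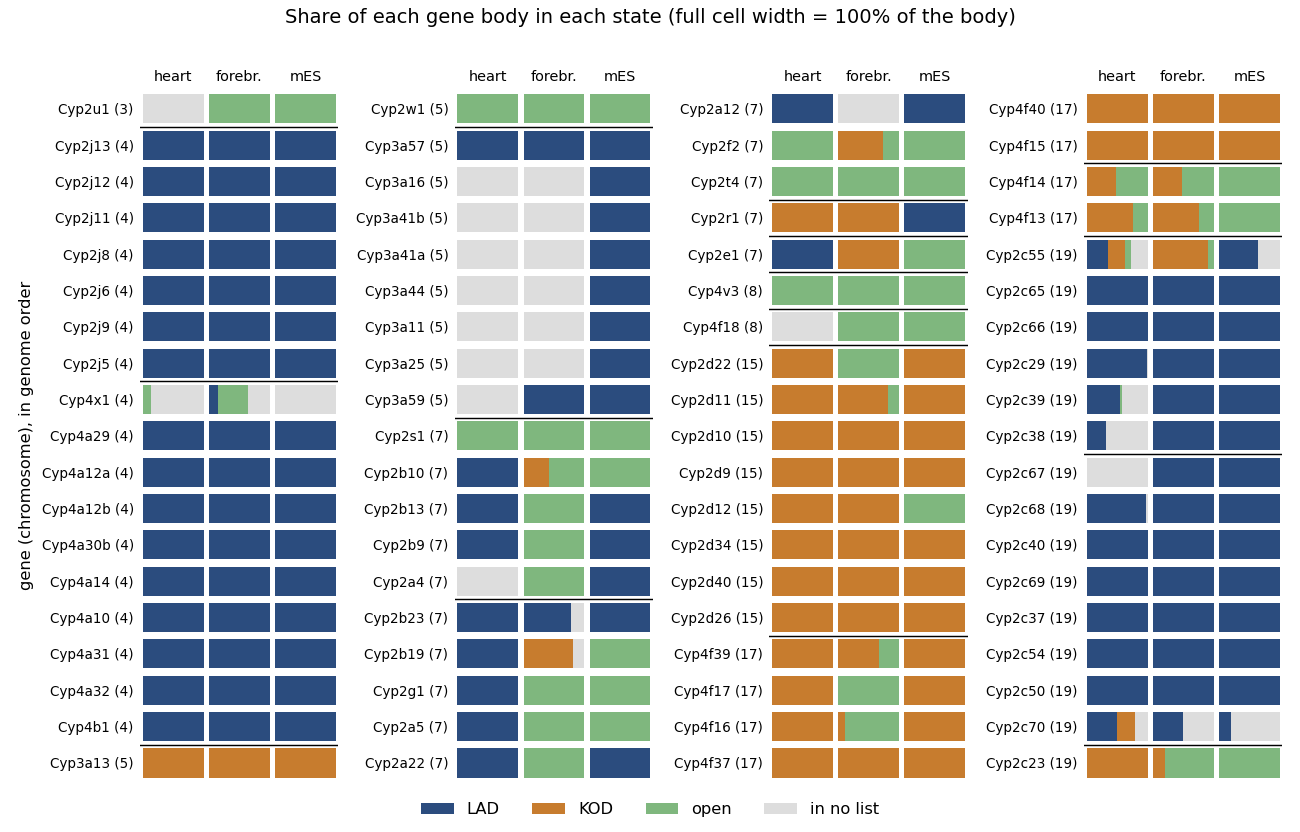
Each row is 1 gene in genome order with its chromosome in brackets, each cell is a source, and the coloured parts of a cell are the percentages of the gene body in each state. Black lines part the clusters. Blocks of LAD run through the Cyp2j, Cyp4a and most Cyp2c genes in all columns, while the rows of the 8 clustered Cyp3a genes are mostly in no list in heart and forebrain and LAD in mES cells.

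The arachidonic acid epoxygenase genes of the Cyp2j subfamily and the fatty acid omega-hydroxylase genes of the Cyp4a subfamily were wholly LAD in every source. The 7 Cyp2j genes (Cyp2j13, Cyp2j12, Cyp2j11, Cyp2j8, Cyp2j6, Cyp2j9 and Cyp2j5) spanned chromosome 4 from 96042660 to 96664171 and each was 100% LAD in heart, forebrain and mES cells. Their LAD ran from 96040001 to 97540000 in heart (1500 kb), from 96010001 to 96720000 in forebrain (710 kb) and from 96040001 to 97720000 in mES cells (1680 kb). The near end of the LAD thus lay 2.66 kb before Cyp2j13 in heart and mES cells and 32.7 kb before it in forebrain. In forebrain and mES cells another LAD lay before it, across a gap of 50 kb in no list. LAD covered 42.3% of the 1 Mb before the cluster in heart, 86.3% in forebrain and 83.3% in mES cells. In forebrain a single 10 kb bin in no list followed the LAD, 55.8 kb past Cyp2j5, and then LAD resumed, so that LAD covered 88.0% of the 1 Mb past the cluster in heart, 84.6% in forebrain and 100% in mES cells.

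Farther along chromosome 4, Cyp4a29, Cyp4a12a, Cyp4a12b, Cyp4a30b, Cyp4a14, Cyp4a10, Cyp4a31, Cyp4a32 and Cyp4b1 were each 100% LAD in the 3 sources. Cyp4a10 and Cyp4a14 are targets of Ppara, and Cyp4b1 bioactivates toxins in the lung. These 9 genes lay in 1 LAD per source, 115140001 to 115670000 in heart (530 kb), 115130001 to 115690000 in forebrain (560 kb) and 115150001 to 115680000 in mES cells (530 kb). The ends differed by at most a few bins between sources. LAD covered 2.23% of the 1 Mb past Cyp4b1 in heart, 4.23% in forebrain and 3.23% in mES cells, so on that side the LAD ended close behind the cluster. The neighbour Cyp4x1 (115106323 to 115134079), described mainly in brain, lay at the other edge and was not LAD. Its body was 13.3% open and 86.7% in no list in heart, 49.3% open, 14.7% LAD and 36.0% in no list in forebrain, and wholly in no list in mES cells.

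The 14 clustered Cyp2c genes of chromosome 19, which metabolise drugs and arachidonic acid, were nearly all LAD as well, with changes at both rims and gaps inside the heart LADs. Over the block from Cyp2c55 to Cyp2c70 (39006940 to 40187286) LAD covered 76.3% of the bases in heart, 94.9% in forebrain and 94.9% in mES cells, and 21.0% of the block was in no list in heart, against 1.46% in forebrain and 5.11% in mES cells. LAD held 12 of the 14 genes in heart, 12 in forebrain and 13 in mES cells. In heart they lay in 3 LADs of 300, 120 and 480 kb, in forebrain in 1 of 1120 kb (39050001 to 40170000), and in mES cells in 2 of 890 and 230 kb. No LAD bin lay within 1 Mb outside the block on either side in any source.

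Inside the block Cyp2c65, Cyp2c66, Cyp2c40, Cyp2c69, Cyp2c37, Cyp2c54 and Cyp2c50 were 100% LAD throughout, and Cyp2c29 and Cyp2c68 were 98.4% and 97.8% LAD in heart and 100% in forebrain and mES cells. Cyp2c67 was in no list in heart and 100% LAD in forebrain and mES cells. Cyp2c38 was 31.4% LAD and 68.6% in no list in heart. Cyp2c39, whose annotated body of 222 kb overlaps that of Cyp2c38, was 54.0% LAD and 41.5% in no list in heart. Both were 100% LAD in forebrain and mES cells.

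The rim genes were mixed. Cyp2c55 (39006940 to 39042690) was 35.5% LAD, 28.0% KOD and 28.0% in no list in heart, 91.4% KOD in forebrain and 63.5% LAD in mES cells. Cyp2c70 (40153361 to 40187286), the enzyme that makes muricholic acids in the mouse, was 49.0% LAD in heart, 49.0% in forebrain and 19.6% in mES cells, and by the largest part it was LAD in heart and in no list in forebrain and mES cells. The separate Cyp2c23 (44005022 to 44029256), an arachidonic acid epoxygenase of the kidney, was 100% KOD in heart, 79.5% open in forebrain and 100% open in mES cells.

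The Cyp3a cluster of chromosome 5 was wholly LAD in mES cells and mostly in no list in the embryonic tissues. Cyp3a11, the main drug-oxidising form of mouse liver and a target of PXR, stands in it with Cyp3a16, a form of the fetal and newborn liver, the female-predominant Cyp3a41a, Cyp3a41b and Cyp3a44, and Cyp3a57, Cyp3a25 and Cyp3a59. All 8 were 100% LAD in mES cells, in 1 LAD from 145320001 to 146150000 (830 kb) that began 25.1 kb before Cyp3a57 and ended 35.0 kb past Cyp3a59. LAD covered 2.51% and 3.50% of the 1 Mb on the sides of the cluster in mES cells. In heart Cyp3a57 was 100% LAD and the other 7 genes were wholly in no list, in 1 gap from 145420001 to 146140000 (720 kb). In forebrain Cyp3a57 and Cyp3a59 were 100% LAD and the other 6 were wholly in no list, in gaps of 320 and 260 kb with 20 kb of open chromatin between them. LAD covered 9.72% of the cluster in heart, 20.8% in forebrain and 100% in mES cells.

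By length the heart gap ranked 9 among 5177 stretches in no list (median 30 kb), and the forebrain gaps ranked 32 and 59 among 3603 (median 30 kb). The pattern of LAD in mES cells and no list in heart and forebrain was held by 6 Cyp genes (7.89%, with 0.692% of all genes), all in this cluster. A bin in no list has no state, so these lists do not place the 6 genes on or off the lamina in heart or forebrain. The gaps also hold near-identical copies. The 250 bases before the starts of Cyp3a41a and Cyp3a41b are printed to show how alike these are. Both are read 5′ to 3′ on the minus strand of GRCm38.p6 from RefSeq, chr5:145720137-145720386 and chr5:145584731-145584980, with the only base that differs in capitals.
Cyp3a41a: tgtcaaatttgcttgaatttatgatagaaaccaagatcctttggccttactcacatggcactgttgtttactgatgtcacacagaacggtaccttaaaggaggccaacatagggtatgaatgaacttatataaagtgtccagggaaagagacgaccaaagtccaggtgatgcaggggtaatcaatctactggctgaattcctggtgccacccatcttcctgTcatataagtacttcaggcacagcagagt
Cyp3a41b: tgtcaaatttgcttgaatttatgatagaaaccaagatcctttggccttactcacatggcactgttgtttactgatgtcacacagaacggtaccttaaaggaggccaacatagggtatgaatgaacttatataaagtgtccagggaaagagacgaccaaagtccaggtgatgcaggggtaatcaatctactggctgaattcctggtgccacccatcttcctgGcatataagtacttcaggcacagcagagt
They were 99.6% identical and differed by T222G (the base of Cyp3a41a first, positions counted from 1 at the 5′ end).

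Among 56 clustered members with a RefSeq promoter, 11 had a partner in their cluster with at least 90% identity over these 250 bases, 7 of them Cyp3a genes. Of the 11, 6 were in no list in heart (54.5%), 5 in forebrain (45.5%) and 0 in mES cells. All genes were in no list in 9.99%, 7.21% and 7.04% of cases in this order. The 6 and the 5 all stand in the Cyp3a cluster, so they restate its gaps and are 1 neighbourhood. Of the other 45, 4 were in no list in heart (8.89%), 3 in forebrain (6.67%) and 1 in mES cells (2.22%). Cyp3a11, whose best partner was 76.2% identical over these bases, was in no list in heart and forebrain and LAD in mES cells. Identity over 250 bases does not tell how reads were placed over the cluster. The part of the copies in the gaps was not tested.

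**Figure D3:**
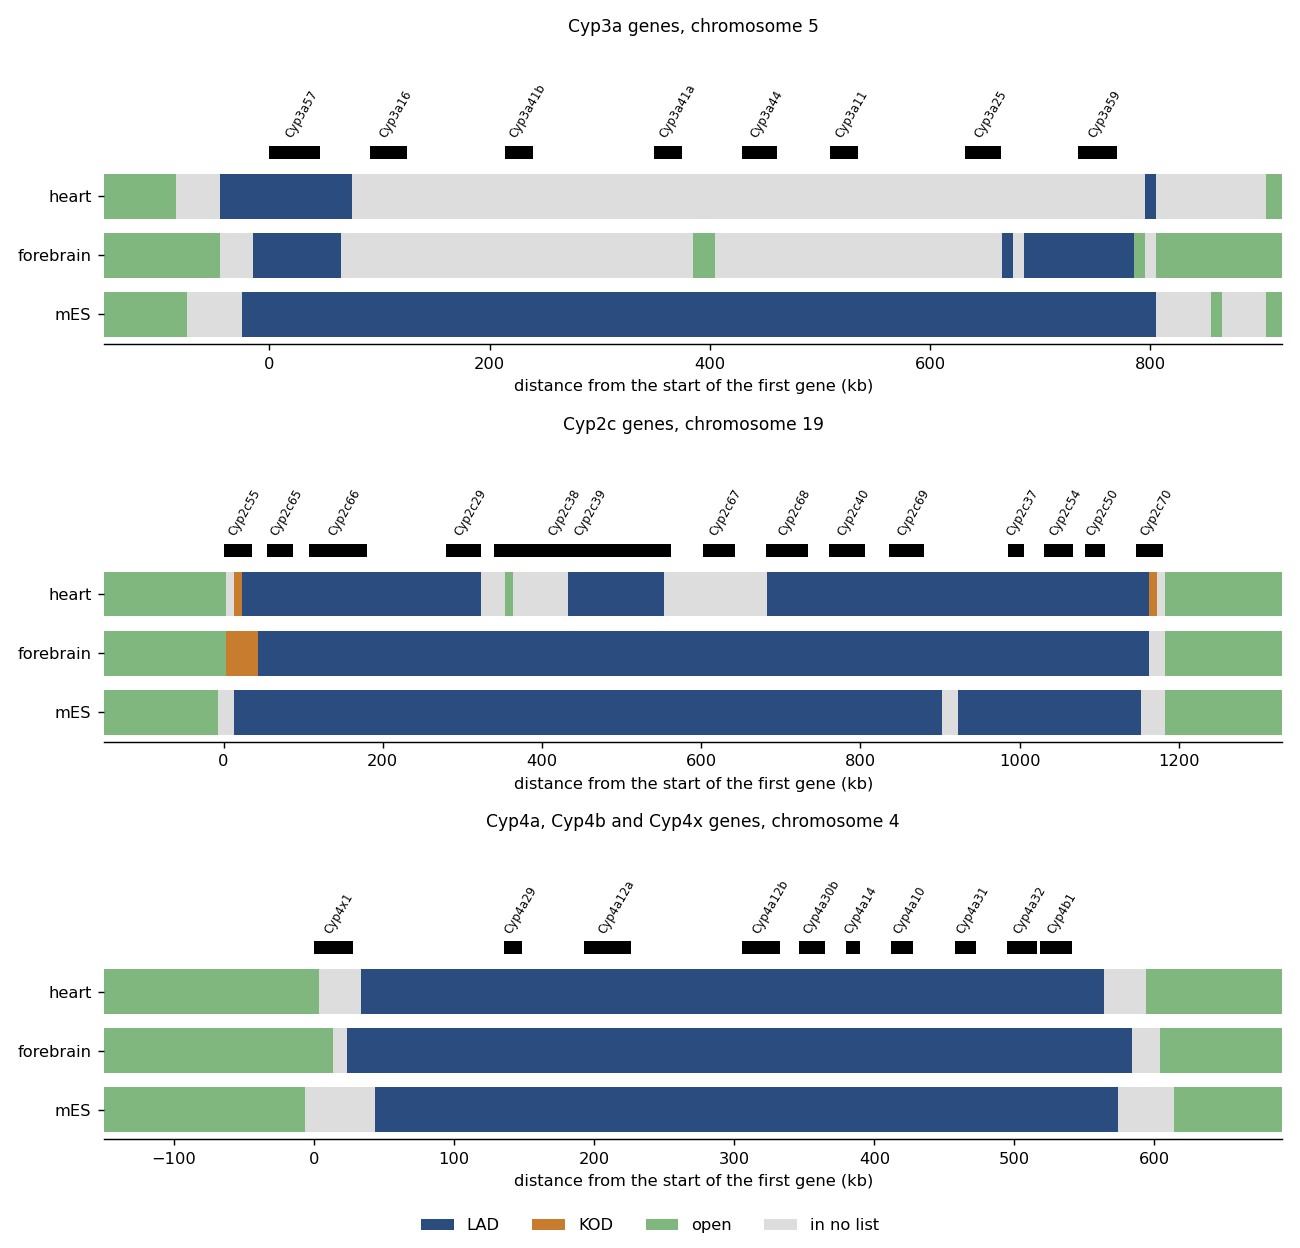
Coloured bars show the state of each 10 kb bin in heart, forebrain and mES cells (top to bottom) against distance in kb from the start of the first gene, and black boxes are the genes. The Cyp3a genes other than Cyp3a57 sit in a 720 kb gap in heart and all of them in an 830 kb LAD in mES cells, the heart LAD over Cyp2c is broken by gaps, and the Cyp4a LAD has nearly the same ends in all 3 sources.

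The clustered Cyp2 genes of chromosome 7 held 8 of the 14 Cyp genes whose state differed between heart and forebrain. Most of these 8 were LAD in heart and open in forebrain. Subfamilies Cyp2a, Cyp2b, Cyp2f, Cyp2g, Cyp2s and Cyp2t stand there in 2 neighbouring clusters of 5 and 8 genes (25802469 to 27158564). LAD held 9 of these 13 genes in heart, 1 in forebrain and 6 in mES cells. Open chromatin held 3 in heart, 9 in forebrain and 7 in mES cells. By bases LAD covered 80.4% of the block in heart, 5.90% in forebrain and 56.0% in mES cells, and open chromatin covered 8.56% in heart, 52.8% in forebrain and 31.4% in mES cells.

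In the cluster nearer the centromere, Cyp2b10 (25897658 to 25926624), the phenobarbital-induced target of CAR, was 100% LAD in heart, 57.4% open and 42.6% KOD in forebrain and 100% open in mES cells. Its neighbours Cyp2b13 and Cyp2b9 were 100% LAD in heart, 100% open in forebrain and 100% LAD in mES cells. Cyp2a4, a steroid 15-alpha-hydroxylase, was in no list in heart, 100% open in forebrain and 100% LAD in mES cells. The forebrain had 1 open domain from 25910001 to 26370000 (460 kb) over 57.4% of Cyp2b10 and all of Cyp2b13, Cyp2b9 and Cyp2a4. In mES cells an LAD from 25950001 to 26320000 (370 kb) lay over the last 3 of these genes. Cyp2s1, a form of epithelia at the edge, was 100% open in all 3 sources.

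The bases before Cyp2b10 and Cyp2b13 are shown because these neighbours were alike in heart and not in mES cells. They are the 250 bases before the start on the plus strand, chr7:25897408-25897657 and chr7:26061245-26061494 (RefSeq, GRCm38.p6), with AGGTCA, a nuclear receptor half-site, in capitals where either strand holds it.
Cyp2b10: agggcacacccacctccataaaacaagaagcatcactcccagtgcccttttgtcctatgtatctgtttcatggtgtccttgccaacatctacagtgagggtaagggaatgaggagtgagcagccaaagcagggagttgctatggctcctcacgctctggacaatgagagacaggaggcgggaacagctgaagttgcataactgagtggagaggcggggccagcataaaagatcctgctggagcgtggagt
Cyp2b13: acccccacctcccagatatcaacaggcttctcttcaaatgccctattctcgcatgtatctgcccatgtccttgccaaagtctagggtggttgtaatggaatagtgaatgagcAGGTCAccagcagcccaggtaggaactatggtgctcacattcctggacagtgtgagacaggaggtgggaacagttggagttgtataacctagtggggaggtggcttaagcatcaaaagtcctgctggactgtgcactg
Cyp2b13 held AGGTCA once and Cyp2b10 did not hold it in this window. The promoter of Cyp2b13 was 99.2% identical to that of Cyp2b9.

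In the next cluster, heart had 1 LAD from 26370001 to 27090000 (720 kb) over 6 genes. Of these, Cyp2g1, a form of the olfactory mucosa, and Cyp2a5, the coumarin 7-hydroxylase, were 100% LAD in heart, 100% open in forebrain and 100% open in mES cells. Cyp2a22 was 100% LAD in heart, 100% open in forebrain and 100% LAD in mES cells, in an LAD of only 50 kb. Cyp2a12 was 100% LAD in heart, in no list in forebrain and 100% LAD in mES cells, there in an LAD of 60 kb. Cyp2b19, an arachidonic acid epoxygenase of the skin, was 100% LAD in heart, 81.5% KOD in forebrain and 100% open in mES cells. Its forebrain KOD was only 40 kb long. Cyp2b23 was the only gene of the block that was LAD in all 3 sources, over 100% of its body in heart, 77.5% in forebrain and 100% in mES cells. Its forebrain LAD was only 30 kb long. With 20 kb trimmed from domain ends, or without domains under 100 kb, Cyp2b23 had no state in forebrain.

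The pattern of LAD in heart, open in forebrain and LAD in mES cells was held by Cyp2b13, Cyp2b9 and Cyp2a22, 3 of 76 Cyp genes (3.95%, with 0.169% of all genes). LAD in heart and open in both others was held by Cyp2b10, Cyp2g1 and Cyp2a5, also 3 (3.95%, with 0.281% of all genes). Trimming 20 kb from domain ends left Cyp2a22 without a state in forebrain and mES cells. It left Cyp2b10 and Cyp2g1 without a state in forebrain.

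At the far edge Cyp2f2, which activates naphthalene in the club cells of the lung, was 100% open in heart, 73.3% KOD and 26.7% open in forebrain and 100% open in mES cells. Cyp2t4 was open throughout. The stretch over Cyp2b13 and Cyp2b9 that was LAD in heart and open in forebrain was 240 kb long and ranked 5 among 637 such stretches of the genome (median 20 kb). That over Cyp2g1, Cyp2a5 and Cyp2a22, 140 kb, ranked 23. The stretch over Cyp2b19, Cyp2g1 and Cyp2a5 that was LAD in heart and open in mES cells was 160 kb long and ranked 8 among 697 (median 20 kb).

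**Figure D4:**
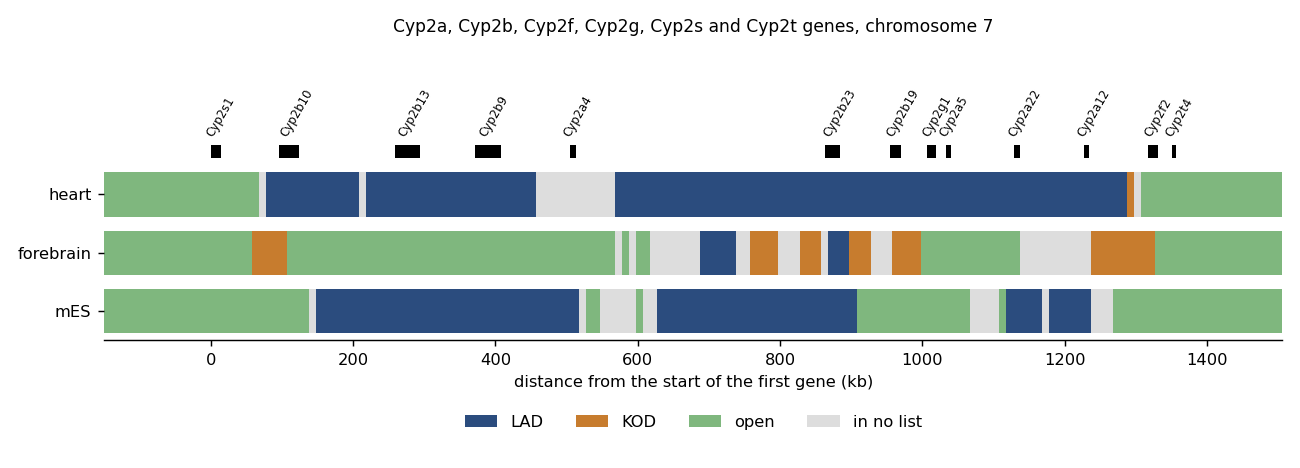
The bars show the state of each 10 kb bin along the chromosome 7 block in heart, forebrain and mES cells (top to bottom) against distance in kb from the start of Cyp2s1, with genes as black boxes. Heart is LAD over 80.4% of the block, forebrain is open over 52.8%, and mES cells alternate between LAD (56.0%) and open (31.4%).

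The ethanol-oxidising enzyme gene Cyp2e1 and Cyp2b19 were the Cyp genes with a different state in every source, LAD in heart, KOD in forebrain and open in mES cells. This order of states was held by 2 of 76 Cyp genes (2.63%) and by 0.0581% of all genes. It rests on short forebrain KODs, of 40 kb at each gene. With 20 kb trimmed from domain ends, or without domains under 100 kb, neither gene had a state in forebrain. Cyp2e1 (chromosome 7, 140763819 to 140774990) was 100% LAD in heart, in a domain of 590 kb that ended 15.0 kb past the gene. It was 100% KOD in forebrain, in a domain of 40 kb from 140750001 to 140790000, and 100% open in mES cells, in a domain of 880 kb that began 3.82 kb before the gene. The gene thus stands at a border between an LAD and open chromatin, and the border lay on opposite sides of it in heart and mES cells.

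Cyp2r1 (chromosome 7, 114550123 to 114563048), the 25-hydroxylase of vitamin D, was 100% KOD in heart and forebrain and 100% LAD in mES cells. The KOD was 60 kb long in heart and 1560 kb in forebrain, and the LAD of mES cells was 120 kb long. Its body began 0.122 kb inside its domain in both heart and mES cells. This pattern was held by 1 Cyp gene (1.32%) and 0.145% of all genes.

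The 250 bases before the starts of these 2 genes differ in kind and are shown for that reason. Cyp2e1 lies on the plus strand, chr7:140763569-140763818, with TATAAA in capitals, and Cyp2r1 on the minus strand, chr7:114562973-114563222 (RefSeq, GRCm38.p6).
Cyp2e1: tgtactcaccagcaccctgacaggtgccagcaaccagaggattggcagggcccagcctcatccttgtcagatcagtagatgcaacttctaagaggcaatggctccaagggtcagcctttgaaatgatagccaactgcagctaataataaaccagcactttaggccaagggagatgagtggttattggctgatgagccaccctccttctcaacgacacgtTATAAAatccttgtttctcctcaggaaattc
Cyp2r1: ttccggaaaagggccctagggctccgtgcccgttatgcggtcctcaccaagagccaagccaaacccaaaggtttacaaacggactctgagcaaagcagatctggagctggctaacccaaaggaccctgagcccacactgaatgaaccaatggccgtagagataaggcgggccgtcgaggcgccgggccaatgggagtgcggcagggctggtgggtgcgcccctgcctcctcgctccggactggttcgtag
Cyp2e1 had 2 CG dinucleotides, 48.8% G and C, and TATAAA starting 31 bases before the start. Cyp2r1 had 16 CG dinucleotides and 61.6% G and C, and TATAAA was not in this window.

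Among the other genes that stand alone, Cyp2w1, which is known from colon tumours, and Cyp4v3, the mouse counterpart of the human corneal dystrophy gene CYP4V2, were 100% open in all 3 sources. Cyp3a13 was 100% KOD in all 3. Cyp2u1, a fatty acid hydroxylase, and Cyp4f18, the leukotriene B4 hydroxylase of neutrophils, were in no list in heart and 100% open in forebrain and mES cells.

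The Cyp2d genes of chromosome 15 and the Cyp4f genes of chromosome 17 held no LAD in any source and were mostly KOD. The Cyp2d subfamily is that of the human debrisoquine hydroxylase. The 8 Cyp2d genes spanned 82370527 to 82794452. In heart all of them, Cyp2d22, Cyp2d11, Cyp2d10, Cyp2d9, Cyp2d12, Cyp2d34, Cyp2d40 and Cyp2d26, were 100% KOD in 1 domain from 82260001 to 82840000 (580 kb). In forebrain 7 were KOD in 1 domain from 82390001 to 82880000 (490 kb), and Cyp2d22, the outermost gene, was 100% open. Cyp2d11 beside it was 82.6% KOD and 17.4% open. In mES cells 7 were 100% KOD, in domains of 210 and 260 kb, and Cyp2d12 was 100% open in a single 10 kb bin between them. No LAD bin lay within 1 Mb of the cluster on either side in any source.

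The Cyp4f subfamily inactivates leukotriene B4 and omega-hydroxylates fatty acids. Cyp4f39, Cyp4f17, Cyp4f16, Cyp4f37, Cyp4f40 and Cyp4f15 (32452697 to 32703352) were 100% KOD in heart and in mES cells, in 1 domain each, of 510 kb in heart and 310 kb in mES cells. In forebrain Cyp4f17 and Cyp4f16 were 100% and 88.2% open, in a domain of 60 kb, Cyp4f39 was 67.2% KOD and 32.8% open, and the other 3 were 100% KOD. The neighbour Cyp4f14 was 52.6% open and 47.4% KOD in heart and in forebrain, and Cyp4f13 was 76.6% KOD and 23.4% open in both. In mES cells Cyp4f14 and Cyp4f13 were 100% open. By the largest part Cyp4f14 was thus open in all 3 sources. In heart and forebrain this rests on an open domain of 20 kb. After 20 kb was trimmed from domain ends, or without domains under 100 kb, Cyp4f14 had no state in either tissue. Over the whole Cyp4f block KOD covered 96.0% of the bases in heart, 81.8% in forebrain and 56.1% in mES cells.

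Compared source by source, the share of Cyp genes with a different state was a little under that of all genes against mES cells and above it between the tissues, and which states were exchanged differed. The comparisons share lists, so they are not independent. Of genes listed in both, 9 of 62 differed in heart from mES cells (14.5%, with 19.6% of all genes). In forebrain against mES cells it was 14 of 67 (20.9%, with 22.6%), and in heart against forebrain 14 of 61 (23.0%, with 15.2%).

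LAD in at least 1 source were 50 of the 76 Cyp genes (65.8%, with 21.1% of all genes). In no list in at least 1 source were 15 (19.7%, with 15.7%), and 61 were listed in all 3 (80.3%, with 84.3%). One state in all 3 sources was kept by 44 of the 61 genes listed in all (72.1%, with 71.7% of all genes), so the Cyp genes were near the background in this. Of all 76 Cyp genes, 28 were LAD in all 3 sources (36.8%, with 10.8% of all genes), 11 were KOD in all 3 (14.5%, with 5.90%) and 5 were open in all 3 (6.58%, with 43.7%). The 5 include Cyp4f14, which was open over only 52.6% of its body in heart and forebrain.

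LAD in heart and open in mES cells were Cyp2b10, Cyp2b19, Cyp2g1, Cyp2a5 and Cyp2e1, 5 of 62 (8.06%, with 0.841% of all genes). Of these, all but Cyp2e1 stand in the chromosome 7 block. The reverse was found in 0 of 62 (1.92% of all genes). KOD in heart and open in mES cells were Cyp2d12, Cyp4f13 and Cyp2c23, 3 of 62 (4.84%, with 11.0%). Cyp2r1 was the 1 of 62 that was KOD in heart and LAD in mES cells (1.61%, with 0.407%). LAD in heart and KOD in mES cells were 0 of 62 (1.05% of all genes), and open in heart and KOD in mES cells were 0 of 62 (4.45%).

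Open in forebrain and LAD in mES cells were Cyp2b13, Cyp2b9, Cyp2a4 and Cyp2a22, 4 of 67 (5.97%, with 1.60%), and the reverse was found in 0 of 67 (0.917%). These 4 stand in the chromosome 7 block as well. After 20 kb was trimmed from domain ends Cyp2a4 had no state in mES cells and Cyp2a22 had none in forebrain or mES cells. Without domains under 100 kb Cyp2a22 had none in mES cells. Cyp2b13 and Cyp2b9, neighbours in 1 domain per source, kept their states. KOD in forebrain and open in mES cells were Cyp2b19, Cyp2f2, Cyp2e1, Cyp2d12 and Cyp4f13, 5 of 67 (7.46%, with 13.1%). Open in forebrain and KOD in mES cells were Cyp2d22, Cyp4f17 and Cyp4f16, 3 of 67 (4.48%, with 6.11%). KOD in forebrain and LAD in mES cells were Cyp2r1 and Cyp2c55, 2 of 67 (2.99%, with 0.420%), and 0 of 67 were LAD in forebrain and KOD in mES cells (0.469%).

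Between the tissues, Cyp2b10, Cyp2b13, Cyp2b9, Cyp2g1, Cyp2a5 and Cyp2a22 were LAD in heart and open in forebrain, 6 of 61 (9.84%, with 0.978% of all genes), and 0 of 61 were the reverse (1.29%). All of these 6 stand in the chromosome 7 block, so they are 1 neighbourhood and not 6 separate cases. Trimming 20 kb from domain ends left Cyp2b10, Cyp2g1 and Cyp2a22 without a state in forebrain. Cyp2b13, Cyp2b9 and Cyp2a5 kept their states in both tissues. At its start of transcription Cyp2b10 was KOD in forebrain. LAD in heart and KOD in forebrain were Cyp2b19, Cyp2e1 and Cyp2c55, 3 of 61 (4.92%, with 0.598%), and 0 of 61 were KOD in heart and LAD in forebrain (0.358%). The forebrain KODs of these 3 genes were 40 kb each. With 20 kb trimmed from domain ends, or without domains under 100 kb, the 3 genes had no state in forebrain. Cyp2c55 was LAD over only 35.5% of its body in heart and was KOD there at its midpoint. KOD in heart and open in forebrain were Cyp2d22, Cyp4f17, Cyp4f16 and Cyp2c23, 4 of 61 (6.56%, with 5.48%), and Cyp2f2 was the 1 of 61 that was open in heart and KOD in forebrain (1.64%, with 6.49%).

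Without that block 6 of 50 Cyp genes differed between heart and forebrain (12.0%, with 15.2% of all genes), so the share above that of all genes between the tissues rests on the block. Without it 5 of 50 differed between heart and mES cells (10.0%, with 19.6%) and 8 of 55 between forebrain and mES cells (14.5%, with 22.6%). With 20 kb trimmed from every domain end, 4 of 43 differed between heart and forebrain (9.30%, with 7.64% of all genes), 5 of 51 between heart and mES cells (9.80%, with 12.7%) and 3 of 46 between forebrain and mES cells (6.52%, with 17.0%). After trimming Cyp2e1 no longer had a state in forebrain or mES cells, Cyp2b19 had none in forebrain, and Cyp2r1 and Cyp2c55 had none in any source.

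Few of the genes that work with these enzymes were LAD, but the lists are short and all genes were LAD in 14.2% of cases in heart, 16.5% in forebrain and 16.5% in mES cells. None of the 5 partners and hydrolases (the reductase Por, Cyb5a, Cyb5r3 and the epoxide hydrolases Ephx1 and Ephx2) was LAD in any source, and Por was KOD in heart and forebrain and open in mES cells. Of 18 regulators 0 were LAD in heart, 1 in forebrain and 0 in mES cells. The 1 was Ahr, the dioxin receptor, 100% LAD in forebrain and in no list in heart and mES cells. Ppara and Hnf4a, which drives many liver genes, were KOD in all 3 sources, Nr1i3 was open in all 3, and Nr1i2 was KOD in heart and open in forebrain and mES cells.

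Of 23 further Cyp genes, 1 was LAD in heart, 1 in forebrain and 1 in mES cells (4.35% each, with the shares of all genes just given). They belong to other families, many of which make or break down steroids, bile acids and retinoids, except for Cyp2ab1, a Cyp2 gene whose symbol has a 2-letter subfamily and which was open in all 3 sources. The LAD gene was Cyp7a1, the rate-limiting enzyme of bile acid synthesis, 100% LAD in each. KOD held 13 of the 23 in heart (56.5%, with 17.8% of all genes), 11 in forebrain (47.8%, with 18.9%) and 11 in mES cells (47.8%, with 12.9%), among them Cyp1a1, Cyp1a2 and Cyp1b1 in all 3 sources. The other drug-metabolism families (Ugt, Sult, Gst, Fmo and Ces genes) were LAD in 45 of 90 cases in heart (50.0%), 38 in forebrain (42.2%) and 39 in mES cells (43.3%), where the Cyp2, Cyp3 and Cyp4 genes had 51.3%, 40.8% and 57.9% in this order of sources. The 33 pseudogenes with symbols of the same kind, 27 of them inside the clusters, were LAD in 15 cases in heart (45.5%, with 37.3% of all 9496 pseudogenes), 11 in forebrain (33.3%, with 42.3%) and 17 in mES cells (51.5%, with 42.1%). The clusters held 2 other protein-coding genes. Vmn1r184, a pheromone receptor beside Cyp2a4, was in no list in heart, open in forebrain and LAD in mES cells as Cyp2a4 was, and Tdg-ps among the Cyp2d genes was KOD in all 3.

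The promoters of the Cyp genes were poor in CG dinucleotides in every state. RefSeq promoters were matched for 62 of the 76 genes. Their median was 2 CG dinucleotides in the 250 bases before the start, where all 16456 protein-coding genes with a promoter had a median of 10. In heart the LAD, KOD and open Cyp genes had medians of 2, 1 and 4, and all genes in these states had 1, 9 and 14. In forebrain the medians were 2, 1 and 3 for the Cyp genes and 2, 10 and 14 for all genes. In mES cells they were 2, 1 and 3 for the Cyp genes and 1, 5 and 14 for all genes. By these medians the LAD Cyp genes were close to other LAD genes, and the KOD and open Cyp genes had fewer CG dinucleotides than other genes of their state. The Cyp genes with at least 10 were Cyp4v3 (17), Cyp2r1 (16), Cyp2s1 (15) and Cyp4f39 (10), and Cyp2r1 was the 1 of these that was LAD in a source.

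Motifs were searched on both strands in the same window. TATAAA was in 24 of 62 Cyp promoters (38.7%, with 12.5% of all promoters). AGGTCA, the nuclear receptor half-site, was in 16 (25.8%, with 12.6%). Neither motif holds the other, and they can share letters only at their ends. A match is a run of letters anywhere in the window and not a bound site. The median G and C was 47.4% in Cyp promoters and 55.6% in all promoters, and the shares were not matched for this. The 11 promoters with a near-identical partner are not independent of each other.

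**Figure D5:**
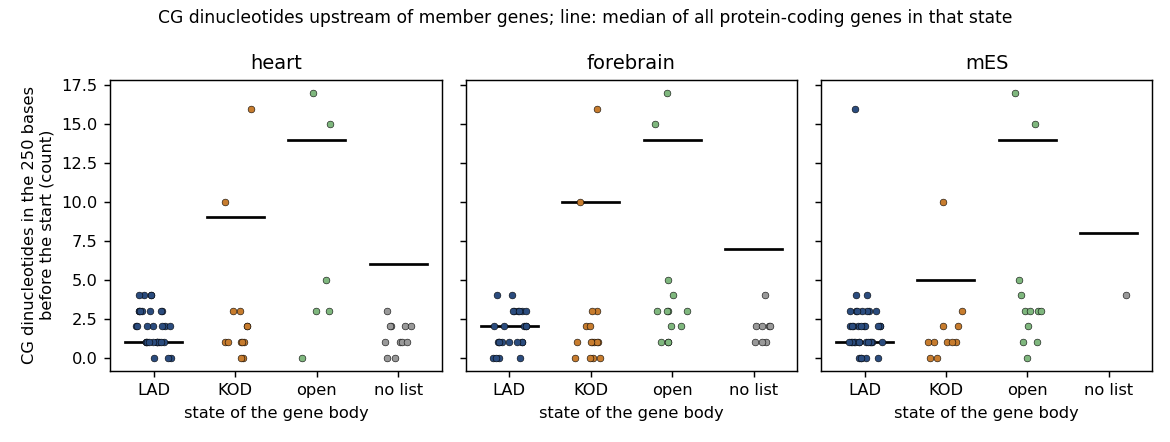
Each point is 1 Cyp gene, placed by the state of its body in heart, forebrain or mES cells and by its number of CG dinucleotides in the 250 bases before its start, with sideways scatter only to part the points. The black lines are the medians of all protein-coding genes in that state, and lie at 9 to 14 for KOD and open genes in heart, above the Cyp medians of 1 and 4.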

How the data were processed

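Per the labels' protocols, H3K9me2, Lamin B1 and IgG were profiled by CUT&RUN in 33 libraries. Per the submitters' processing notes, reads were handled with Bowtie2 2.5.0, cutadapt 4.2 and Trim Galore, with deepTools and Picard, and the build was mm10. The way domains were called: not given in the sources used here. The 9 deposited lists hold domain positions in 10 kb bins, pooled over replicates, with no value per library. Signal tracks and protein sequences were not used here.

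States were painted on chromosomes 1 to 19 with Python 3.11.15, numpy 2.4.6 and pandas 2.3.3; the LAD, KOD and open lists of 1 source do not overlap. No list competes with the 3 states for the largest part of a gene. The state rule was checked on simulated maps. Promoters were aligned globally with biopython 1.88, and identity is matches over alignment columns. A further motif that was searched is not reported here. Figures used matplotlib 3.10.9. No test was made, since no list has replicates. The members and lists were chosen with earlier results of these data known. Every member is named, with its shares where its state differs between sources and at the ends of clusters of at least 5 genes. Alternatives were the gene midpoint, the start of transcription (62 members), a 50% minimum, trimmed ends, domains of at least 100 kb, other cluster gaps, and other ways to count no list.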

Additional observations from a re-analysis of the deposited data

How the results depend on the processing

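No paired analysis was possible because the replicates of every source were merged into its lists, and for the same reason no replicate could be left out. Of 120 counts recomputed, 97 stayed within 1.5 times the value in the report. The rule compares counts even where a setting covers fewer genes. Leaving out the largest cluster, that of Cyp4a, Cyp4b and Cyp4x, removed no gene whose state differed, so those counts could not move. The 97 is thus no measure of how firm the states are. Trimming 20 kb from domain ends gave 9 KOD and 11 open genes in forebrain, and 5, 3 and 4 genes with differing states for heart against mES cells, forebrain against mES cells and heart against forebrain. Without domains under 100 kb, 5 of 54 differed in forebrain against mES cells and 7 of 49 in heart against forebrain. With no list as a state, 22, 22 and 23 of 76 differed in the order given for trimming, and without the chromosome 7 block 5, 8 and 6. At the start of transcription 8 of 48 differed in heart against forebrain, and neighbouring genes counted once gave 9 there. Among these alternatives, shares of all genes with differing states were computed only for trimming and for leaving out the block. The other counts of differing genes thus have no background. Clusters and single genes counted once gave 7, 4 and 7 of 18 units that were mainly LAD in heart, forebrain and mES cells. These numbers are smaller by construction and have no background. With starts at most 100 kb apart 11, 10 and 14 of 17 clusters held 1 state in heart, forebrain and mES cells. With starts at most 500 kb apart it was 1 of 7 in forebrain and 2 of 7 in mES cells. Trimming and the length limit leave fewer bins listed. Otherwise the cause was not tested. Leaving out the chromosome 7 block, counting neighbours once, taking only genes listed in all 3 sources and calling no list only where no base is listed were chosen after seeing the data. The depth behind a state, and how reads of near-identical copies were placed, are unknown here.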
